A study of Homo sapiens with 12 samples.

Results

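The 10 genes described here are ATF4, DDIT3, ASNS, CHAC1, TRIB3, XBP1, PSAT1, PHGDH, SESN2 and PPP1R15A, a list of genes of the integrated stress response and the unfolded protein response. They were chosen by name, with earlier results of these data known, as 10 of the 22784 gene symbols in the expression table. All 10 were among the 14839 symbols tested. Their counts are therefore set beside the shares of all tested genes as descriptions. SK-UT-1, an established cell line from a human uterine leiomyosarcoma, was treated for 48 h with the DMSO vehicle, with 5 µM JQ1 or with 5 µM I-BET 762. Both compounds keep the bromodomains of the BET proteins from binding acetylated lysines on histones, and RNA-seq was performed to see how the transcriptome responded to them. Of 12 labelled libraries, 4 in each group, 10 were analysed here: DMSO replicates 13, 14 and 15, JQ1 replicates 17, 18, 19 and 20, and I-BET 762 replicates 21, 22 and 23. All libraries came from 1 cell line, and nothing in the labels says that the replicates were separate cultures, so the p-values measure the spread between these samples, which may be technical.

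In the integrated stress response, the kinases PERK, GCN2, PKR and HRI phosphorylate the translation factor eIF2α, which lowers general protein synthesis but lets the ATF4 mRNA be translated. ATF4 is a basic leucine zipper (bZIP) transcription factor that turns on genes of amino acid synthesis and transport together with the stress regulators DDIT3, CHAC1, TRIB3 and SESN2. The unfolded protein response of the endoplasmic reticulum (ER) shares its PERK arm with this pathway and adds ATF6 and the IRE1 kinase (ERN1), which splices the XBP1 mRNA into the form that encodes an active factor. Counts per gene measure neither the translation of ATF4 nor the splicing of XBP1.

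Reads on genes numbered 35564586 to 39658989 per library, and a count of 0 allows up to 3 reads, or 2.73 to 3.30 normalized counts. These limits cover counting error only. The fewest reads behind any value of the 10 genes were 74, for ASNS in a DMSO library. A normalized count is a read count divided by the library's size factor. Of the 8 smooth muscle markers, 6 (ACTA2, TAGLN, CNN1, SMTN, CALD1 and LMOD1) had more than 3 reads in every library, and their list summed to 20500 to 21136 normalized counts with DMSO, 10661 to 11269 with JQ1 and 11822 to 12374 with I-BET 762. All 5 mesenchymal markers and 4 of 5 epithelial markers passed the same level, 0 of 3 endothelial markers did, and 1 of 4 blood cell markers, CD14, did. The mesenchymal sums were 154311 to 162932 with DMSO, 176545 to 188515 with JQ1 and 157813 to 161763 with I-BET 762, and the epithelial sums 1212 to 1271, 511 to 602 and 497 to 544. Over all libraries the endothelial markers summed to 1.003 to 7.40 and the blood cell markers to 17.7 to 37.0 normalized counts. The part of these marker differences in the results below was not tested. In bulk RNA, fewer cells with a transcript and less of it per cell cannot be told apart.

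Short promoter stretches are shown for 3 of the genes because they carry, spelled out, DNA elements for which this pathway is known. The window searched was 250 bases before to 50 bases after each start site in RefSeq (GRCh38.p14), on both strands. All 10 genes matched, with 16 windows, among 35116 windows in all. The C/EBP-ATF response element (CARE), searched as TGATGNAA, is the composite element that ATF4 binds with a C/EBP partner, and 3.617% of all windows held it. The ER stress response element (ERSE), searched as CCAAT and CCACG with 9 bases between them, is the element of ATF6 and XBP1, and 0.07689% of windows held it. Capitals mark the match.
ASNS, chr7:97872458-97872487, minus strand, CARE: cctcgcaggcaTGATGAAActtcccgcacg
CHAC1, chr15:40953251-40953280, plus strand, CARE on the opposite strand: ctcccctgccgTTGCATCActcctgccagg
XBP1, chr22:28800598-28800626, minus strand, ERSE: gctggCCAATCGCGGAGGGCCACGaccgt
The ASNS match lay 68 to 61 bases before the start site, the CHAC1 match 209 to 202 bases before it, and the XBP1 match 52 to 34 bases before it. The other 8 genes held no CARE match and the other 9 no ERSE match in these windows, which says only that these letters were not found there. A match to the cAMP response element TGACGTCA, present in 1.848% of windows, was found in 1 of the 10 genes, PPP1R15A, 58 to 51 bases before the start site. These distances are from the RefSeq start site of the window that held the match. ASNS and XBP1 had 2 windows each, and CHAC1 and PPP1R15A had 1 each. The ASNS, CHAC1 and PPP1R15A matches lie inside the Gencode V44 gene spans given below, so they do not precede every annotated start. A match in a window is a description of the sequence and not a measured binding site.

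With JQ1, 3 of the 10 genes were upregulated and 0 downregulated at the threshold for a differentially expressed gene (DEG), an adjusted p-value under 0.05 with a fold change over 1.5. They were ASNS, DDIT3 and CHAC1. Across the 14839 tested genes, 13.3% were higher and 22.8% lower as DEGs in the same comparison. By adjusted p-value alone, ATF4, PSAT1 and SESN2 were also higher and TRIB3, XBP1 and PHGDH lower, which makes 6 of 10 higher and 3 of 10 lower against 36.0% and 35.6% of all tested genes. PPP1R15A was the 1 gene that did not pass the adjusted p-value. The median log2 fold change of the 10 genes was 0.43, and that of all tested genes was 0.00756.

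With I-BET 762, 2 of the 10 genes, DDIT3 and ASNS, were upregulated DEGs and 0 were downregulated, against 8.96% and 17.9% of all tested genes. ATF4 and PSAT1 were higher and TRIB3 and XBP1 lower by adjusted p-value alone, so that 4 of 10 were higher and 2 of 10 lower against 29.9% and 31.3% of tested genes. With the counts rescaled to equal library totals or to equal upper quartiles, 3 of 10 were higher and 3 of 10 lower. PHGDH then passed as lower (adjusted p = 0.00224 and 0.0417) and ATF4 did not pass (0.478 and 0.0850). The shares of all tested genes are those of the deposited scaling. The median log2 fold change of the 10 genes was 0.0989, and that of all tested genes was −0.000634. Both inhibitors were compared with the same 3 DMSO libraries, so the comparisons are not independent of each other.

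The split between higher and lower depended on scaling. Library totals of normalized counts were 3.44e+07 to 3.57e+07 with DMSO, 3.72e+07 to 3.78e+07 with I-BET 762 and 3.92e+07 to 4.18e+07 with JQ1. When the normalized counts were rescaled to equal library totals, the median log2 fold change of all tested genes moved to −0.18 with JQ1 and −0.10 with I-BET 762. Of all 14839 tested genes, 1979 rose and 3379 fell with JQ1 as deposited, and 1222 rose and 4217 fell at equal totals. With I-BET 762, 1329 rose and 2662 fell as deposited, and 994 rose and 3064 fell at equal totals. Of the 10 genes, 3 then rose and 1, XBP1, fell with JQ1, while 0 rose and 2, TRIB3 and XBP1, fell with I-BET 762. The median log2 fold change of the 10 genes at equal totals was 0.25 with JQ1 and 0.0024 with I-BET 762.

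**Figure D1:**
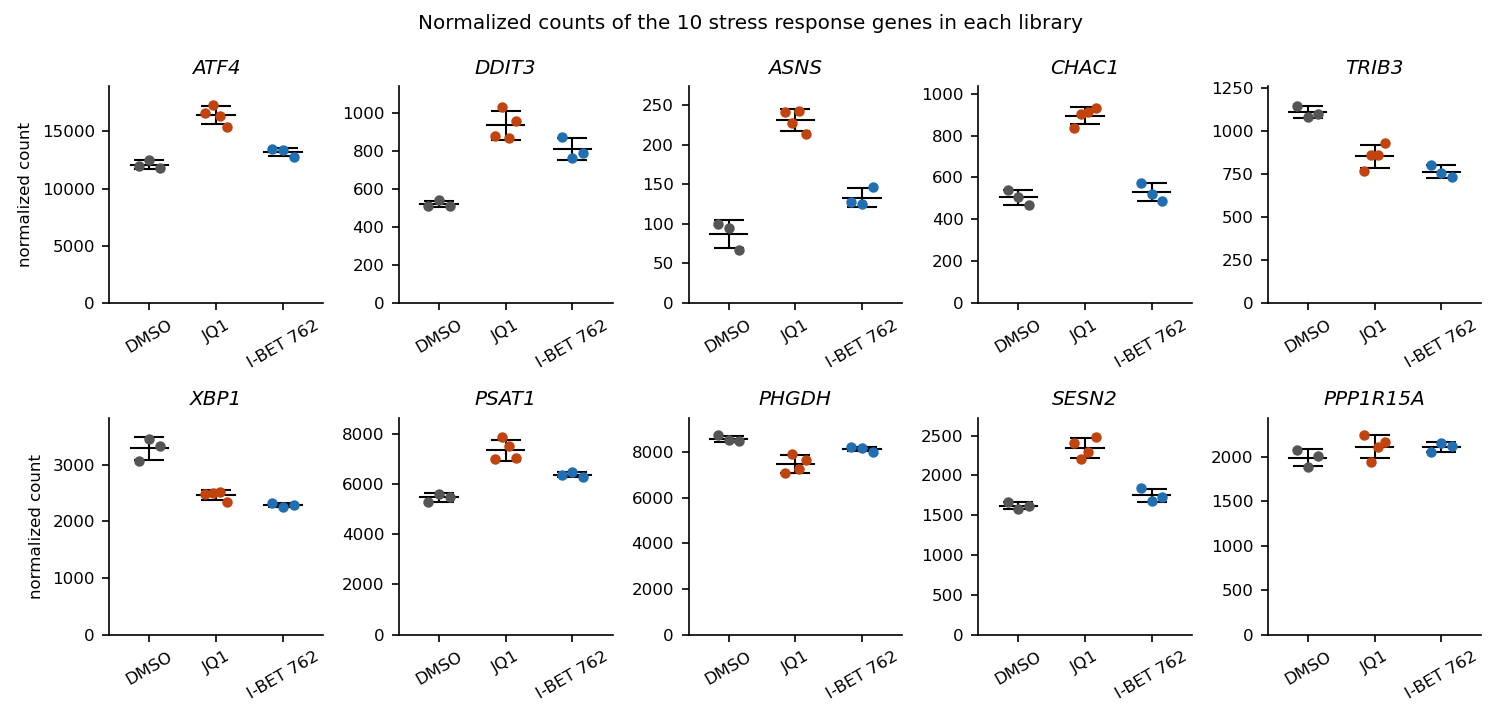
Each panel plots the normalized count (vertical axis, from 0) of 1 gene in the 3 DMSO, 4 JQ1 and 3 I-BET 762 libraries. Points are libraries, the long line is the group mean and the bars are 1 SD. All JQ1 points lie above all DMSO points for ATF4, DDIT3, ASNS, CHAC1, PSAT1 and SESN2 and below them for TRIB3, XBP1 and PHGDH, and the groups overlap for PPP1R15A.

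ATF4 (ENSG00000128272.18, chr22:39519695-39522683, plus strand, positions in hg38 from Gencode V44 here and below) encodes the factor at the centre of the response. Its normalized counts in the DMSO libraries were 11956, 12514 and 11770.3. They were 16592, 17284, 16372 and 15368 with JQ1 and 13452, 13414 and 12802 with I-BET 762. The 3 groups did not overlap, with JQ1 highest and DMSO lowest. The DMSO mean was 12080.2 ± 387 (SD, n = 3), the JQ1 mean 16404 ± 793 (SD, n = 4) and the I-BET 762 mean 13223 ± 365 (SD, n = 3). ATF4 was 1.36-fold higher with JQ1 (log2 fold change 0.44, SE 0.05, adjusted p = 5.94e-07), under the fold change of a DEG. Over the alternatives tried, this JQ1 value ran from 0.26 to 0.47. With I-BET 762 ATF4 was 1.09-fold higher (log2 fold change 0.13, SE 0.05, adjusted p = 0.0389), and at equal totals this difference was 0.03 with an adjusted p of 0.478. The I-BET 762 difference of ATF4 missed the adjusted p-value in 9 of 19 alternatives, among them leaving out DMSO replicate 13 or 15, JQ1 replicate 19, or I-BET 762 replicate 21 or 22, at 0.0502 to 0.136. Gencode V44 names 4 ATF4 pseudogenes, and how reads that fit both were counted is not given in the sources used here.

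DDIT3 (ENSG00000175197.13, chr12:57516588-57521737, minus strand) encodes CHOP, a bZIP factor induced by ATF4 and linked to cell death under lasting ER stress. The libraries held 513, 542 and 514 normalized counts with DMSO, 883, 1034, 872 and 958 with JQ1, and 875, 766 and 793 with I-BET 762. Every treated library lay above every DMSO library, and the JQ1 and I-BET 762 ranges overlapped. DDIT3 rose 1.79-fold with JQ1 (log2 fold change 0.84, SE 0.07, adjusted p = 3.87e-08) and 1.55-fold with I-BET 762 (0.63, SE 0.08, adjusted p = 3.84e-06). The I-BET 762 fold change fell under the threshold without I-BET 762 replicate 21, at a log2 value of 0.58, and at equal totals, at 0.53. In the annotation, 24.3% of the canonical DDIT3 transcript lies in exons of MARS1 on the opposite strand and 11.6% in exons of ENSG00000285133 on the same strand. The libraries were strand-specific, but whether the counting used strand is not given in the sources used here.

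XBP1 (ENSG00000100219.17, chr22:28794555-28800597, minus strand) encodes the factor of the IRE1 arm, and its ERSE match is printed above. XBP1 had normalized counts of 3069, 3459 and 3332 with DMSO. They were 2489, 2498, 2517 and 2339.9 with JQ1 and 2327, 2259 and 2284 with I-BET 762. All treated libraries lay below all DMSO libraries. XBP1 was at 0.750-fold of DMSO with JQ1 (log2 fold change −0.42, SE 0.05, adjusted p = 1.96e-06) and at 0.698-fold with I-BET 762 (−0.52, SE 0.05, adjusted p = 6.20e-07), neither past the fold change of a DEG. At equal totals both were DEGs, with log2 fold changes of −0.60 and −0.62. Gencode V44 names 1 XBP1 pseudogene.

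Asparagine and serine synthesis enzymes did not move alike. ASNS (ENSG00000070669.17, chr7:97851677-97872542, minus strand) encodes asparagine synthetase and has the CARE match shown above. Its normalized counts were 99.8, 95.2 and 67.3 with DMSO, 241, 227, 243 and 213 with JQ1, and 128, 125 and 147 with I-BET 762. The 3 groups did not overlap. ASNS rose 2.66-fold with JQ1 (log2 fold change 1.41, SE 0.14, adjusted p = 1.35e-07), the largest fold change among the 10 genes. It rose 1.54-fold with I-BET 762 (0.62, SE 0.15, adjusted p = 0.00166), which fell under the fold threshold without DMSO replicate 15 (0.44, adjusted p = 0.0102) or without I-BET 762 replicate 23 (0.55, adjusted p = 0.0113), at equal totals (0.52) and at equal upper quartiles (0.58). Over the alternatives tried, its adjusted p ran from 0.00111 to 0.0113. ASNS was the lowest of the 10 genes, with 74 to 243 reads per library. Its level and its fold changes are uncertain. Of the canonical ASNS transcript, 99.5% lies in exons of the long non-coding RNA ENSG00000284707 on the same strand. How shared bases were counted is not given in the sources used here, so the counts may not describe the ASNS mRNA. Gencode V44 also names 4 ASNS pseudogenes.

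PSAT1 (ENSG00000135069.14, chr9:78297125-78330093, plus strand) encodes phosphoserine aminotransferase and PHGDH (ENSG00000092621.13, chr1:119648411-119744218, plus strand) phosphoglycerate dehydrogenase, consecutive enzymes of serine synthesis. PSAT1 had normalized counts of 5275, 5617 and 5500.2 with DMSO, 6989.6, 7882, 7504 and 7048 with JQ1, and 6348, 6473 and 6277 with I-BET 762. The 3 groups did not overlap, with DMSO lowest. PSAT1 was 1.34-fold higher with JQ1 (log2 fold change 0.43, SE 0.05, adjusted p = 9.87e-07) and 1.17-fold higher with I-BET 762 (0.22, SE 0.05, adjusted p = 0.00182). Over the alternatives tried, its JQ1 value ran from 0.24 to 0.45. PHGDH had normalized counts of 8737, 8519 and 8505 with DMSO, 7097, 7926, 7261 and 7662 with JQ1, and 8223, 8187 and 8029.8 with I-BET 762. Its groups also did not overlap, but DMSO was highest and JQ1 lowest. PHGDH was at 0.871-fold of DMSO with JQ1 (log2 fold change −0.20, SE 0.05, adjusted p = 0.00107) and at 0.949-fold with I-BET 762 (−0.08, 95% confidence interval −0.18 to 0.03, adjusted p = 0.193). The I-BET 762 value of PHGDH was −0.17 at equal totals (adjusted p = 0.00224) and −0.11 at equal upper quartiles (adjusted p = 0.0417). Neither gene reached the fold change of a DEG, and Gencode V44 names 4 PSAT1 pseudogenes.

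CHAC1, TRIB3, SESN2 and PPP1R15A act downstream of ATF4 or feed back on it. CHAC1 (ENSG00000128965.13, chr15:40952962-40956512, plus strand) encodes an enzyme that degrades glutathione. CHAC1 had normalized counts of 539, 506 and 469 with DMSO, 835, 903, 911 and 930.1 with JQ1, and 574, 522 and 488 with I-BET 762. The JQ1 libraries lay above all others, and the I-BET 762 and DMSO ranges overlapped. CHAC1 rose 1.77-fold with JQ1 (log2 fold change 0.83, SE 0.07, adjusted p = 6.05e-08). With I-BET 762 its log2 fold change was 0.06 (95% confidence interval −0.10 to 0.23, adjusted p = 0.501), and −0.03 at equal totals.

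TRIB3 (ENSG00000101255.12, chr20:362835-397559, plus strand) encodes a pseudokinase that restrains ATF4 and CHOP activity. TRIB3 had normalized counts of 1148, 1079.8 and 1098 with DMSO, 767, 859.5, 858 and 928 with JQ1, and 805, 758 and 730.4 with I-BET 762. All treated libraries lay below all DMSO libraries. TRIB3 was at 0.768-fold of DMSO with JQ1 (log2 fold change −0.38, SE 0.07, adjusted p = 0.000113) and at 0.689-fold with I-BET 762 (−0.54, SE 0.07, adjusted p = 1.07e-05). Only the equal-totals rescaling, among the alternatives tried, made it a DEG, with I-BET 762 at −0.63.

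SESN2 (ENSG00000130766.5, chr1:28259518-28282491, plus strand) encodes sestrin 2, a leucine sensor that restrains mTORC1 (the growth-promoting kinase complex). Its normalized counts were 1664, 1577 and 1613 with DMSO, 2409, 2201, 2298 and 2479.8 with JQ1, and 1840.0, 1679 and 1733 with I-BET 762. The 3 groups did not overlap, with JQ1 highest. SESN2 was 1.45-fold higher with JQ1 (log2 fold change 0.54, SE 0.05, adjusted p = 2.43e-07), just under the fold change of a DEG, and its log2 fold change with I-BET 762 was 0.11 (95% confidence interval −0.01 to 0.24, adjusted p = 0.104). Over the alternatives tried, the JQ1 value of SESN2 ran from 0.35 to 0.57.

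PPP1R15A (ENSG00000087074.9, chr19:48872212-48876059, plus strand) encodes GADD34, the phosphatase subunit that takes the phosphate off eIF2α and ends the response. Its normalized counts were 2074, 1891 and 2015 with DMSO, 2246, 1941, 2108 and 2170.5 with JQ1, and 2055, 2157 and 2126 with I-BET 762. The 3 groups overlapped. JQ1 gave a log2 fold change of 0.09 (95% confidence interval −0.03 to 0.21, adjusted p = 0.185) and I-BET 762 one of 0.08 (−0.04 to 0.21, adjusted p = 0.237), and both were negative at equal totals, at −0.10 and −0.01.

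**Figure D2:**
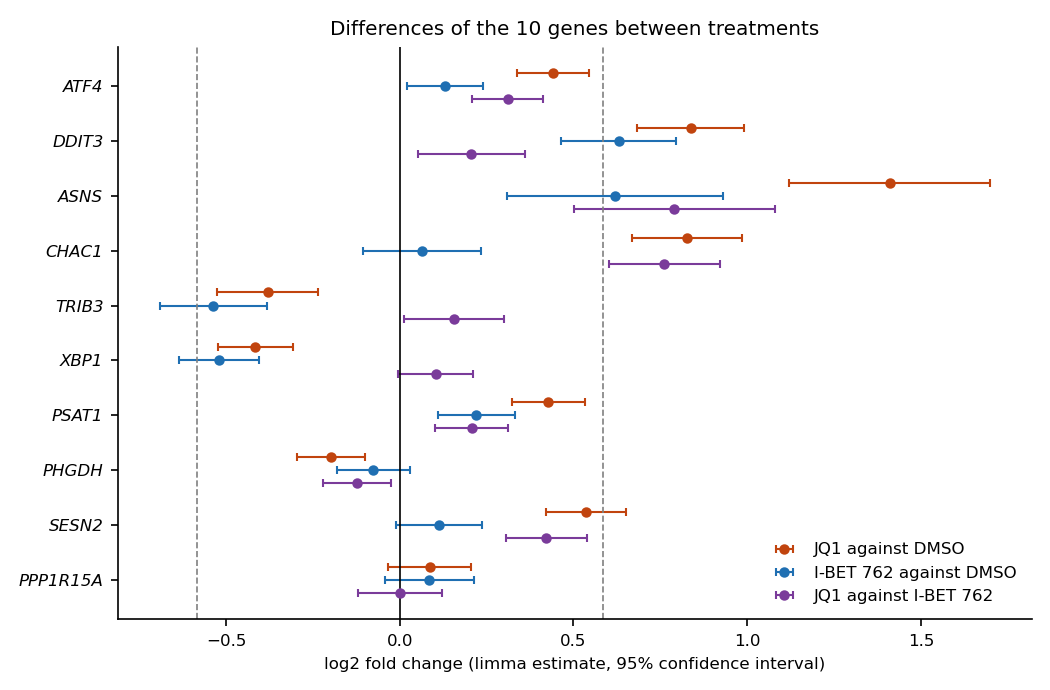
The log2 fold change (horizontal axis) of each of the 10 genes is plotted for JQ1 against DMSO, I-BET 762 against DMSO and JQ1 against I-BET 762, as limma estimates with 95% confidence intervals. Dashed lines mark a fold change of 1.5, a log2 value of 0.585 either way. The JQ1 estimate of ASNS, 1.41, is farthest to the right, and the I-BET 762 estimate of TRIB3, −0.54, is farthest to the left.

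JQ1 and I-BET 762 were given at the same dose, 5 µM, for the same time, 48 h. Whether this dose inhibited the BET proteins equally is not given in the sources used here. A difference of compound and one of strength of inhibition therefore cannot be told apart. Between the inhibitors, 2 of the 10 genes, ASNS and CHAC1, were DEGs, both higher with JQ1, and 0 were lower. The shares of all tested genes were 1.73% and 3.59%. By adjusted p-value alone, ATF4, DDIT3, PSAT1 and SESN2 were also higher with JQ1, which makes 6 of 10 higher and 0 of 10 lower against 13.3% and 14.0% of all tested genes. At equal totals and at equal upper quartiles alike, 5 of 10 were higher and 1 of 10, PHGDH, lower by adjusted p-value. The shares of all tested genes are those of the deposited scaling. The median log2 difference of the 10 genes was 0.21, and that of all tested genes was −0.000120. The p-values were adjusted over all 14839 genes, and the 10 genes were compared for this 1 pair of compounds.

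ASNS was 1.73-fold higher with JQ1 than with I-BET 762 (log2 difference 0.79, 95% confidence interval 0.50 to 1.08, adjusted p = 0.000600). The exon overlap of ASNS described above also limits this value. CHAC1 was 1.70-fold higher (0.76, 0.60 to 0.92, adjusted p = 4.31e-06). In both genes every JQ1 library lay above every I-BET 762 library. Both are the genes with a CARE match in the promoter window, which for 2 genes is a description. The genes also higher by adjusted p-value alone, ATF4, DDIT3, PSAT1 and SESN2, held no CARE match there. Any part of this element in the differences was not tested. SESN2 was 1.34-fold higher with JQ1 (0.42, 0.31 to 0.54, adjusted p = 4.85e-05) and ATF4 1.24-fold higher (0.31, 0.21 to 0.41, adjusted p = 0.000268), again with no overlap of libraries. PSAT1 was 1.15-fold higher (0.21, 0.10 to 0.31, adjusted p = 0.00585) and so was DDIT3 (0.21, 0.05 to 0.36, adjusted p = 0.0464), the latter with overlapping libraries. The adjusted p of DDIT3 was 0.05 or more in 12 of 19 alternatives and ran up to 0.198, at equal totals, where the log2 difference was 0.12. It was also lost without DMSO replicate 13, 14 or 15, JQ1 replicate 18 or 20, or I-BET 762 replicate 22 or 23, at 0.0537 to 0.190. The other 4 genes did not pass the adjusted p-value. The log2 difference was 0.16 for TRIB3 (95% confidence interval 0.01 to 0.30), 0.10 for XBP1 (−0.00444 to 0.21), −0.12 for PHGDH (−0.22 to −0.03) and 0.000876 for PPP1R15A (−0.12 to 0.12). Their adjusted p-values were 0.103, 0.144, 0.0586 and 0.993. That of PHGDH was under 0.05 in 5 of 19 alternatives and that of TRIB3 in 1, without JQ1 replicate 17. Leaving out JQ1 replicate 18 or 20 was among the 5 for PHGDH, at 0.00708 and 0.0440. So were equal totals (log2 difference −0.21, adjusted p = 0.000994) and equal upper quartiles (−0.15, adjusted p = 0.0154).

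To compare levels between genes, normalized counts were divided by the length of the merged exons of Gencode V44 and are given per kilobase (kb). With DMSO the order was ATF4 at 4623, PSAT1 at 2477, XBP1 at 1085, PHGDH at 935, PPP1R15A at 581, SESN2 at 467, DDIT3 at 400.2, TRIB3 at 337, CHAC1 at 246 and ASNS at 17.9 normalized counts per kb. No neighbours in that order overlapped over the DMSO libraries. With JQ1, PHGDH (815), XBP1 (813), DDIT3 (717), SESN2 (678) and PPP1R15A (616) overlapped with their neighbours in the order. With I-BET 762, DDIT3 (621) overlapped with PPP1R15A (615) and CHAC1 (257) with TRIB3 (232). ATF4, at 6278 per kb with JQ1 and 5060.4 with I-BET 762, and PSAT1, at 3334 and 2886, were first and second in both by this length. CHAC1 lay below TRIB3 with DMSO and above it with JQ1, at 436 against 259. The order depends on the length used, since per kb of the canonical transcript, an alternative added after the data were seen, PHGDH came second in all 3 groups, above PSAT1, at 4602 with DMSO, 4012 with JQ1 and 4366 with I-BET 762.

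**Figure D3:**
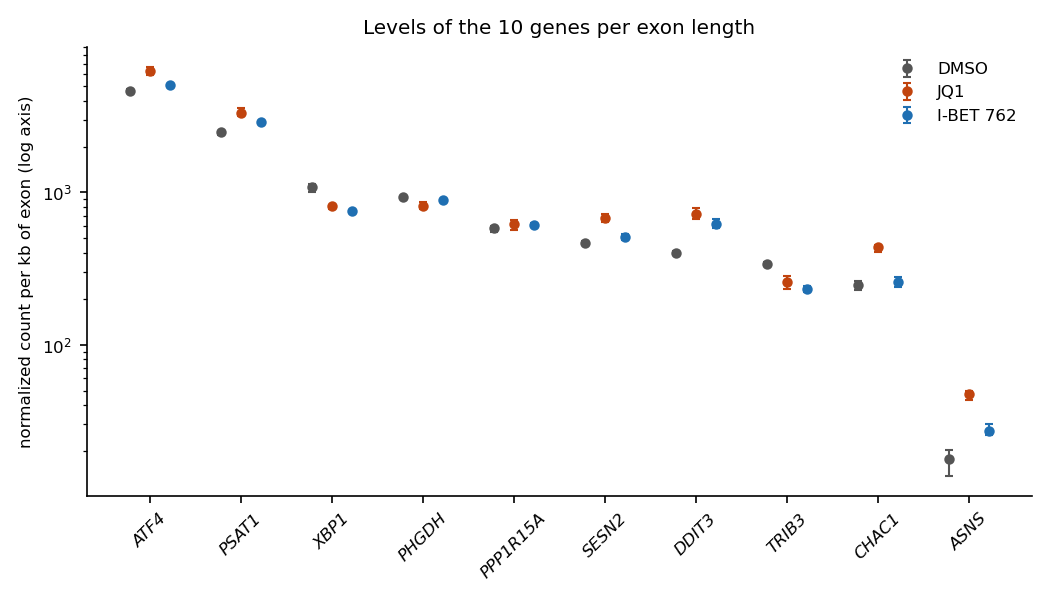
Normalized counts per kb of merged exon (vertical axis, logarithmic) are plotted for the 10 genes, ordered by their mean with DMSO. Points are group means over 3 DMSO, 4 JQ1 and 3 I-BET 762 libraries, and bars run from the lowest to the highest library. ATF4 is highest in each group and ASNS lowest, at 17.9 per kb with DMSO and 47.2 with JQ1.

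Around these genes, 64 further genes of the pathway were listed in 7 groups by role, of which 61 were tested. NUPR1 and FGF21 were under the filter on low counts, and DERL3 was not analysed here. With JQ1, 4 of the 61 (6.56%) were upregulated DEGs and 9 (14.8%) downregulated, both shares below the 13.3% and 22.8% of all tested genes. With I-BET 762 the counts were 3 (4.92%) and 10 (16.4%), below the 8.96% and 17.9% of all tested genes. JQ1 gave them a median log2 fold change of 0.07 and I-BET 762 one of −0.03. Between JQ1 and I-BET 762, 1 of the 61 (1.64%) was a DEG, higher with JQ1, near the 1.73% of all tested genes. None was lower, against 3.59%. By adjusted p-value alone, 18 of the 61 were higher with JQ1 than with I-BET 762 and 3 lower. The shares of all tested genes were 13.3% and 14.0%. Against DMSO, 27 were higher and 17 lower with JQ1, against 36.0% and 35.6%. With I-BET 762, 13 were higher and 21 lower, against 29.9% and 31.3%. Such splits depend on scaling, since equal totals moved the median log2 difference of all tested genes between the inhibitors to −0.088. At equal totals no group had more genes higher, or fewer lower, by adjusted p-value in any comparison. The 15 ER chaperones and foldases went from 3 higher and 5 lower with JQ1 to 1 and 12. Between the inhibitors they went from 0 and 0 to 0 and 5, while the secreted and surface targets stayed at 3 and 0. The splits of the 61 are therefore not read as a direction. The groups hold 5 to 15 tested genes, where 1 gene is 6.67% to 20.0% of a group, so their counts are given as descriptions beside the same shares of all tested genes.

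**Figure D4:**
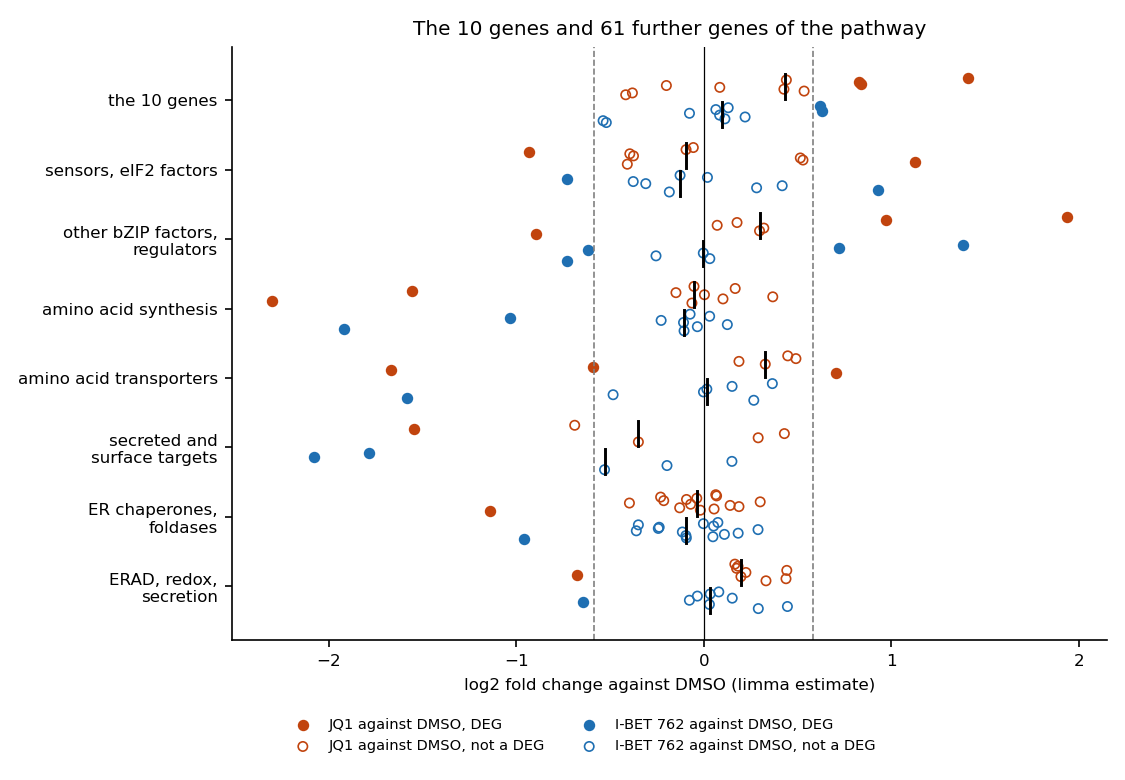
Each point is the log2 fold change (horizontal axis) of 1 gene with JQ1 (orange) or I-BET 762 (blue) against DMSO, in rows for the 10 genes and the 7 groups of further pathway genes. Filled points are DEGs, black bars are medians and dashed lines mark a fold change of 1.5. The amino acid synthesis row has DEGs to the left only, down to −2.30 for PYCR1 with JQ1.

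Among 9 stress kinases, other sensors and eIF2 factors, 1 (11.1%) rose and 1 (11.1%) fell with each inhibitor, against 13.3% and 22.8% of all tested genes with JQ1 and 8.96% and 17.9% with I-BET 762. ERN1, the IRE1 kinase that splices XBP1 mRNA, had normalized counts of 556.5 to 675 with DMSO, 1167 to 1501 with JQ1 and 1119.8 to 1228 with I-BET 762. It rose 2.19-fold with JQ1 (log2 fold change 1.13, SE 0.09, adjusted p = 7.09e-09) and 1.91-fold with I-BET 762 (0.93, adjusted p = 2.94e-07), whereas XBP1 itself was lower with both. EIF2AK2, the RNA-activated kinase PKR, had 10849.9 to 11329 with DMSO, 5558 to 5971 with JQ1 and 6654 to 6808 with I-BET 762. It fell to 0.523-fold (−0.93, SE 0.04, adjusted p = 2.03e-11) and 0.602-fold (−0.73, adjusted p = 2.09e-09).

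Of 7 tested bZIP factors and regulators other than the 10 genes, 2 (28.6%) rose and 1 (14.3%) fell with JQ1, against 13.3% and 22.8% of all tested genes. With I-BET 762, 2 rose and 2 fell (28.6% each), against 8.96% and 17.9%. ATF3, a stress-induced bZIP repressor, had 181 to 209 normalized counts with DMSO, 679 to 808 with JQ1 and 465 to 522 with I-BET 762. It rose 3.83-fold with JQ1 (log2 fold change 1.94, SE 0.08, adjusted p = 1.21e-11) and 2.61-fold with I-BET 762 (1.38, SE 0.09, adjusted p = 3.56e-09). ATF5, a bZIP factor translated under stress as ATF4 is, rose 1.96-fold with JQ1 and 1.65-fold with I-BET 762, with log2 fold changes of 0.97 and 0.72. JDP2, a bZIP repressor, fell to 0.538-fold and 0.604-fold, with log2 fold changes of −0.89 and −0.73. CEBPB, a C/EBP factor named here after its values were seen, was the 1 further gene that differed as a DEG between the inhibitors (log2 difference 0.80, 95% confidence interval 0.41 to 1.18, adjusted p = 0.00461). Its normalized counts were 273 to 338 with DMSO, 258 to 479 with JQ1 and 193 to 208 with I-BET 762, so that JQ1 spanned the DMSO range. Its fall with I-BET 762 (−0.62, adjusted p = 0.0119) was lost without DMSO replicate 14 (−0.55) and without an intensity trend in the moderation (adjusted p = 0.0521). Its adjusted p over the alternatives ran from 1.82e-05 to 0.0521, and 12.6% of CEBPB lies in exons of CEBPB-AS1 on the opposite strand.

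Of 9 further enzymes of serine, glycine, proline, alanine and cysteine synthesis, 0 rose and 2 (22.2%) fell with each inhibitor. The share that fell was near the 22.8% of all tested genes with JQ1 and the 17.9% with I-BET 762. The shares of all tested genes that rose were 13.3% and 8.96%. PYCR1, which makes proline, had 2130.4 to 2332 normalized counts with DMSO, 429 to 473 with JQ1 and 563 to 618 with I-BET 762. It fell to 0.203-fold with JQ1 (log2 fold change −2.30, SE 0.06, adjusted p = 6.01e-14) and 0.264-fold with I-BET 762 (−1.92, SE 0.07, adjusted p = 3.54e-12). A long non-coding RNA on the opposite strand covers 19.8% of its canonical transcript. CBS, which starts cysteine synthesis from homocysteine, was low, with 32.4 to 41.6 normalized counts with DMSO, 8.70 to 17.2 with JQ1 and 12.8 to 25.6 with I-BET 762. CBS fell by 1.55 on the log2 scale with JQ1 (adjusted p = 0.000297) and by 1.04 with I-BET 762 (adjusted p = 0.0129), and the second call was lost without DMSO replicate 13 (adjusted p = 0.0515) and without I-BET 762 replicate 23 (adjusted p = 0.0613). The other 7 enzymes were not DEGs.

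Of 7 amino acid transporters, 1 (14.3%) rose and 2 (28.6%) fell with JQ1, near the 13.3% and 22.8% of all tested genes. With I-BET 762, 0 rose and 1 (14.3%) fell, against 8.96% and 17.9%. By adjusted p-value alone, 5 of the 7 were higher and 2 lower with JQ1, against 36.0% and 35.6% of all tested genes. The group's median log2 fold change with JQ1 was 0.33. At equal totals 4 were higher and 2 lower with JQ1, and the group's median was 0.14, where that of all tested genes was −0.18. With I-BET 762, 3 were higher and 2 lower by adjusted p-value, against 29.9% and 31.3%, and at equal totals 1 and 2. The shares of all tested genes are those of the deposited scaling, so the equal-totals counts have no share beside them. SLC7A11, the cystine importer, had 2594 to 2645 normalized counts with DMSO, 783 to 872 with JQ1 and 841 to 929 with I-BET 762. It fell to 0.315-fold (log2 fold change −1.67, SE 0.06, adjusted p = 6.56e-13) and 0.334-fold (−1.58, SE 0.06, adjusted p = 9.00e-12). SLC7A5, which imports large neutral amino acids, rose 1.63-fold with JQ1 (0.70, SE 0.09, adjusted p = 1.82e-06) and was 1.20-fold higher with I-BET 762 (0.27, adjusted p = 0.0186). At equal totals the JQ1 log2 fold change of SLC7A5 was 0.52, under the threshold. SLC7A1, an arginine and lysine importer, was at 0.664-fold with JQ1 (−0.59, adjusted p = 1.74e-05), and its call was lost without DMSO replicate 13 (−0.51), JQ1 replicate 17 (−0.56) or JQ1 replicate 18 (−0.52). With I-BET 762 SLC7A1 had a log2 fold change of −0.48.

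Of 5 tested secreted and surface targets, 0 rose with either inhibitor, against 13.3% of all tested genes with JQ1 and 8.96% with I-BET 762. With JQ1, 1 (20.0%) fell, near the 22.8% of all tested genes, and with I-BET 762, 2 (40.0%) fell, against 17.9%. The 2 were STC2 and GDF15, and the second is limited by its low counts as given below. STC2, a secreted glycoprotein induced by ER stress, had 239 to 285 normalized counts with DMSO, 79.4 to 106 with JQ1 and 57.1 to 71.8 with I-BET 762. It fell to 0.343-fold (log2 fold change −1.54, SE 0.14, adjusted p = 4.99e-08) and 0.237-fold (−2.08, SE 0.15, adjusted p = 8.13e-09). GDF15, a stress cytokine, had 12.9 to 20.9 normalized counts with DMSO, 4.06 to 17.0 with JQ1 and 1.97 to 6.02 with I-BET 762. The JQ1 difference, −0.69 on the log2 scale (adjusted p = 0.202), did not pass and the I-BET 762 difference, −1.78 (adjusted p = 0.00599), did, from 2 to 23 reads per library.

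Of 15 ER chaperones and foldases, 0 rose and 1, SDF2L1, fell with each inhibitor (6.67%). Both shares were below those of all tested genes, 13.3% and 22.8% with JQ1 and 8.96% and 17.9% with I-BET 762. The median log2 fold change of the 15 was −0.04 for JQ1 and −0.09 for I-BET 762. SDF2L1, an ER-resident cochaperone, had 556 to 655 normalized counts with DMSO, 255 to 301 with JQ1 and 309.8 to 313 with I-BET 762. It fell to 0.454-fold (log2 fold change −1.14, SE 0.08, adjusted p = 6.17e-09) and 0.515-fold (−0.96, SE 0.09, adjusted p = 2.10e-07). Of 9 tested genes of ER-associated degradation, redox and secretion, 0 rose and 1, SEC24D, fell with each (11.1%), again below 22.8% and 17.9%. SEC24D, a coat protein of vesicles leaving the ER, fell to 0.626-fold with JQ1 (−0.68, SE 0.05, adjusted p = 1.91e-09) and 0.641-fold with I-BET 762 (−0.64, SE 0.05, adjusted p = 1.79e-08). With JQ1 the other 8 genes of this group were higher by adjusted p-value without reaching the fold change of a DEG, where 36.0% of all tested genes were higher by adjusted p-value, and the group's median log2 fold change was 0.20. This depended on scaling, since at equal totals 2 of the 9 were higher by adjusted p-value, 4 of the 9 had negative values and the median was 0.013. The median of all tested genes with JQ1 was then −0.18, and the 36.0% is the share at the deposited scaling.

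Among genes outside the 10, the log2 values of H2BC11, NOP16 and FDX1 followed those of ATF4 most closely over the 10 libraries, with Pearson's r of 0.994, 0.989 and 0.986. These r values describe libraries that share 3 treatment groups, and they carry no test. H2BC11 averaged 9832 normalized counts in the DMSO libraries, 14357 in the JQ1 libraries and 11089 in the I-BET 762 libraries. NOP16 averaged 1566, 2117 and 1732 and FDX1 749, 975 and 797 in those groups, the same order as for ATF4. The library totals of normalized counts had this order of groups too, and their part in the r values was not tested.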

How the data were processed

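RNA-seq was measured in 12 SK-UT-1 libraries, of which 10 had values. Per the labels and the methods, the authors made strand-specific libraries from total RNA, checked reads with FastQC 0.73, trimmed them with Trimmomatic, aligned them to hg38 with HISAT2 2.2.1, counted them with featureCounts 2.0.3 on Gencode V41 and normalized with DESeq2, leaving out samples they judged outliers. In the deposited table each value is the log2 of a normalized count to which 1 was added, and values run from 0 to 20.48. DMSO replicate 16 and I-BET 762 replicate 24 were not analysed here.

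Undoing the log2 gave whole multiples of 1 step for 99.5% to 99.6% of values under 1000 reads (tolerance 0.01 reads), which gave the reads and size factors of 0.910 to 1.099. Genes with a normalized count of at least 10 in at least 3 libraries were fitted in limma 3.58.1 (R 4.3.3), on log2 of the normalized count plus a pseudocount of 1, with the 10 libraries in 1 model, empirical Bayes moderation with an intensity trend, and Benjamini-Hochberg adjustment over the tested genes. Fold changes are on this log2 scale, which understates changes of low genes. Tables were made with Python 3.11.15, pandas 2.3.3 and numpy 2.4.6. The fit was tested on simulated data.

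Groups came from the treatment labels. The members and lists were chosen with earlier results of these data known. The text names the 10 genes, up to 3 DEGs per further list with the largest change with JQ1, and the 3 genes whose log2 values correlated most with ATF4. Alternatives were pseudocounts of 0.5 and 5, no filter, a mean count of at least 100, equal totals, equal upper quartiles, no trend, only the groups compared, limma-voom on the recovered reads, other fold thresholds and leaving out each library.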

Additional observations from a re-analysis of the deposited data

Results flagged for a closer look

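In 25 groups of 4 JQ1 libraries, 1 per gene named from the pathway, the highest and lowest library were compared with the rest. XBP1 in JQ1 replicate 20, at 2339.9 normalized counts, lay below the other 3 JQ1 libraries, which ran from 2489 to 2517. The gap was 0.840 of the group's range, above Dixon's 95% critical value for 4 samples. Over the alternatives tried, among them leaving out this library, the log2 fold change of XBP1 with JQ1 ran from −0.60 to −0.38. EIF2AK2 in the same library, at 5558, lay below the other 3, at 5908 to 5971, with a ratio of 0.848. Chance flags about 1 in 20 such groups.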

How the results depend on the processing

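No paired analysis was possible because the replicate numbers in the labels are all different and no number is shared between groups. Of 570 recomputed log2 fold changes of the 10 genes, 553 kept their direction and their side of the threshold, 3 became DEGs, 6 were no longer DEGs and 8 reversed. The reversals were PPP1R15A at equal totals with JQ1 (−0.10), with I-BET 762 (−0.012) and between the inhibitors (−0.088), PPP1R15A between the inhibitors at equal upper quartiles (−0.027) and without JQ1 replicate 17 (−0.028), JQ1 replicate 20 (−0.012) or I-BET 762 replicate 21 (−0.019), and CHAC1 with I-BET 762 at equal totals (−0.032). Over all 10 libraries left out in turn, the difference of PPP1R15A between the inhibitors ran from −0.028 to 0.042. CEBPB with JQ1 reversed at equal totals (−0.00705). DEGs among the 10 genes numbered 3 with JQ1, 2 with I-BET 762 and 2 between the inhibitors. With no fold threshold they numbered 9, 6 and 6, and at a fold change over 2, by construction fewer, 1, 0 and 0. With I-BET 762, equal upper quartiles left 1. Leaving out 1 library gave 3 to 3, 1 to 2 and 2 to 2, with 1 without DMSO replicate 15, I-BET 762 replicate 21 or I-BET 762 replicate 23. DEGs among the 61 further genes numbered 13, 13 and 1, then 44, 34 and 21 with no fold threshold and 7, 6 and 0 at a fold change over 2. Leaving out 1 library gave 12 to 13, 12 to 13 and 1 to 4, with 4 without JQ1 replicate 18, 3 without JQ1 replicate 20 or I-BET 762 replicate 21 and 2 without I-BET 762 replicate 22. Among all tested genes, 5358, 3991 and 788 became 3359, 2338 and 418 at a mean count of at least 100, which tests fewer genes, 10633, 9073 and 4047 with no fold threshold, and 2958, 2108 and 206 at a fold change over 2. Leaving out 1 library gave 5192 to 5409, 3809 to 4027 and 603 to 875. At equal totals they split into 1222 higher and 4217 lower with JQ1, 994 and 3064 with I-BET 762, and 172 and 782 between the inhibitors. The cause of the other shifts was not tested. With 3 or 4 libraries per group and 74 or more reads per value, small differences such as those of PPP1R15A were limited by the spread between libraries.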
